A study of Homo sapiens with 12 samples.

Results

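Lowering the activity of a kinase with a small molecule and raising its amount with a cDNA are opposite handlings of the same protein, and the comparison described here set the RNA changes after each of them side by side for STK17B in KMS11 cells, a line established from human multiple myeloma. The inhibitor effect is the inhibitor libraries minus the shControl libraries. The overexpression effect is the overexpression libraries minus the Vector libraries. The difference between both effects was tested gene by gene, and genes were sorted by whether they were mirrored (called in both effects with opposite signs) or moved alike (called in both with the same sign). The comparison used 8 of the 12 libraries of the series and 12731 of 29607 genes, those with at least 1 TPM in at least 2 of the 12 libraries. TPM is transcript abundance corrected for transcript length, with equal totals for all libraries.

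The inhibitor group was labelled wild type and received an STK17B inhibitor whose name, dose and time are not stated in the labels, and the series design places it in cells that carried the control hairpin. The shControl group carried the control hairpin and the Vector group a control vector, and both were labelled wild type and untreated. The overexpression group carried a vector with STK17B cDNA and was untreated. The promoter that drives the cDNA and the number of clones are not stated. The remaining 4 libraries, of cells with 1 of 2 hairpins against STK17B (sh1 and sh2), were not part of the contrast and are given beside it. Every group had 2 libraries, and nothing says that these came from separate cultures, so p-values measure only the spread between these libraries, which may be technical. The series design speaks of vehicle for the control-hairpin cells given the inhibitor, but no group used here was labelled as vehicle. Effects of the inhibitor and of its solvent therefore cannot be told apart.

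STK17B, also called DRAK2, belongs to the kinases related to death-associated protein kinase and is best studied in lymphocytes, where it tunes antigen receptor signalling. Multiple myeloma is a cancer of plasma cells, the antibody-secreting end stage of B cells, which carry syndecan-1 (SDC1) on their surface and depend on factors such as IRF4 and XBP1. Several gene programmes used below have well-known regulators: the hypoxia-inducible factors (HIF) raise glycolytic and angiogenic genes when oxygen is low, MYC raises the genes that build ribosomes, and the SREBP factors raise sterol and fatty acid synthesis. NRF2 raises genes that handle oxidants, and heat shock factor raises chaperones.

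The libraries of a group were alike, with replicate correlations of log2(TPM + 1) between 0.991 and 0.993 and between 11672 and 12353 genes at 1 TPM or more in each library. The 16 plasma cell genes that passed the filter include SDC1, XBP1, IRF4 and MZB1, and the summed level of the list was 3160.3 to 3201 TPM with the inhibitor, 4165 to 4237 TPM in shControl, 4259 to 4266 TPM with overexpression and 4692 to 4718 TPM in Vector. CD27, FCRL5 and GPRC5D, also on that list, did not reach the filter. Of 14 T and NK cell markers, only CD7 and CD3E passed the filter. Myeloid markers summed to between 2.90 and 7.36 TPM in any library. The control columns of the table are told apart by a number alone. The column pair numbered 1 was taken as shControl and the pair numbered 9 as Vector, since these are the library numbers of their first replicates. That assignment is an inference, so all counts were also made with the control groups exchanged.

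STK17B RNA itself tells the arms apart. STK17B (chr2:196133566-196176503, minus strand, GRCh38) had 24.9 and 22.4 TPM in inhibitor libraries, against 27.1 and 27.4 TPM in shControl libraries, and 94.1 and 84.5 TPM in overexpression libraries, against 28.2 and 31.5 TPM in Vector libraries. The overexpression libraries stood above all others, and the inhibitor libraries lay just under the lowest shControl library. The overexpression effect was 1.55 on the log2(TPM + 1) scale (SE 0.08, limma adjusted p = 2.4e-06). The inhibitor effect was -0.20 (SE 0.08, limma adjusted p = 0.09), which missed the threshold of 0.05. Under rescaling by the median of ratios, under quantile normalization and with the controls exchanged it passed, at -0.27, -0.29 and -0.32. RNA gives no measure of kinase activity. STK17B had 12.7 and 10.9 TPM in sh1 libraries and 14.7 and 14.5 TPM in sh2 libraries. The paralog STK17A (chr7:43582758-43650713) moved alike, with an inhibitor effect of 0.24 and an overexpression effect of 0.25. The difference between its effects was -0.01 (95% interval -0.16 to 0.14). The inhibitor effect of STK17A was not called after quantile normalization (0.12), nor the overexpression effect with the controls exchanged (0.06).

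Both handlings moved many genes by small amounts. A call is a limma adjusted p below 0.05. With the inhibitor 3569 genes were called higher (28% of the tested genes) and 1507 lower (11.8%). With overexpression 3381 genes were called higher (26.6%) and 1308 lower (10.3%). The difference between the effects was called for 4507 genes, 2265 of them higher (17.8%) and 2242 lower (17.6%), where higher means that the inhibitor effect lies above the overexpression effect. Mirrored genes numbered 1030: 494 were higher with the inhibitor and lower with overexpression (3.88%), and 536 were lower with the inhibitor and higher with overexpression (4.21%). Genes that moved alike numbered 1336, with 1061 higher in both (8.33%) and 275 lower in both (2.16%). In every gene of these 4 classes, neither the inhibitor pair nor the overexpression pair overlapped its control pair, as held for 6512 of all tested genes. The median effect over all tested genes was 0.08 for the inhibitor and 0.08 for overexpression, and the higher calls outnumbered the lower ones in both. That balance depended on the scale: higher calls were 70.3% of the inhibitor calls and 72.1% of the overexpression calls on TPM, but 52.1% and 46% with median-of-ratios scaling and 51.9% and 46.3% with quantile normalization, which moved the median overexpression effect to -0.02. Genes alike higher then numbered 398 and 420, and genes alike lower 551 and 530. With the controls exchanged, 5721 genes were called higher with overexpression and 3434 lower with the inhibitor. Mirrored genes were then 1197 with the inhibitor higher and 2452 with it lower, and 180 genes were alike lower. List counts given below for that exchange are to be read beside these counts, not beside the shares above.

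The 2 arms share no library, but both effects of a gene were tested with the same estimate of its spread. The call lists are therefore not independent. A gene with little spread between replicates is more easily called in both arms, whether with opposite signs or with the same sign. How far this raised the shares of called genes given here and below was not tested. Of the 1507 genes lower with the inhibitor, 35.6% were higher and 18.2% lower with overexpression, against 26.6% and 10.3% of all tested genes. Those 536 mirrored genes are 15.9% of the genes higher with overexpression. Of the 3569 genes higher with the inhibitor, 29.7% were higher and 13.8% lower with overexpression. The 494 mirrored genes among them are 37.8% of the genes lower with overexpression, and the 1061 alike genes are 31.4% of the genes higher with it. Called genes of every class were more abundant than the tested genes as a whole: the median level over all libraries was 60.9 TPM for the mirrored genes that were higher with the inhibitor, 17.8 TPM for the mirrored genes that were lower, 30.4 TPM for those alike higher and 38.0 TPM for those alike lower, against 13.3 TPM over all tested genes. Across all 12731 genes both effects were nearly uncorrelated (Pearson r = -0.09, Spearman rho = -0.04, a description over genes that are not independent). With the control groups exchanged the Pearson value was -0.42. That exchange brings the Vector minus shControl difference into both effects with opposite signs, so this value cannot be compared directly with the first.

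Changes of 2-fold or more in both arms sat mostly on the side where the inhibitor was lower and overexpression higher. Of 94 genes lower with the inhibitor by 2-fold or more, 52 were called higher with overexpression (55.3%, against 26.6% of all tested genes). In the same 94 genes 19 were called lower (20.2%, against 10.3%). Of 102 genes higher with overexpression by 2-fold or more, 41 were called lower with the inhibitor (40.2%, against 11.8%) and 13 higher (12.7%, against 28%). Of 20 genes lower with overexpression by 2-fold or more, 8 were called lower with the inhibitor (40%) and 1 higher (5%). In both arms at once, 26 genes were lower with the inhibitor and higher with overexpression by at least 2-fold, and none was the other way round. In addition 7 genes were higher in both by at least 2-fold and 4 were lower in both. At the edge of the class definition, LIX1L was the last gene inside (inhibitor effect -0.11, overexpression effect 0.16, the larger adjusted p 0.05 after rounding). PHB was the nearest outside (0.08 and -0.35, the larger adjusted p 0.0502).

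**Figure D1:**
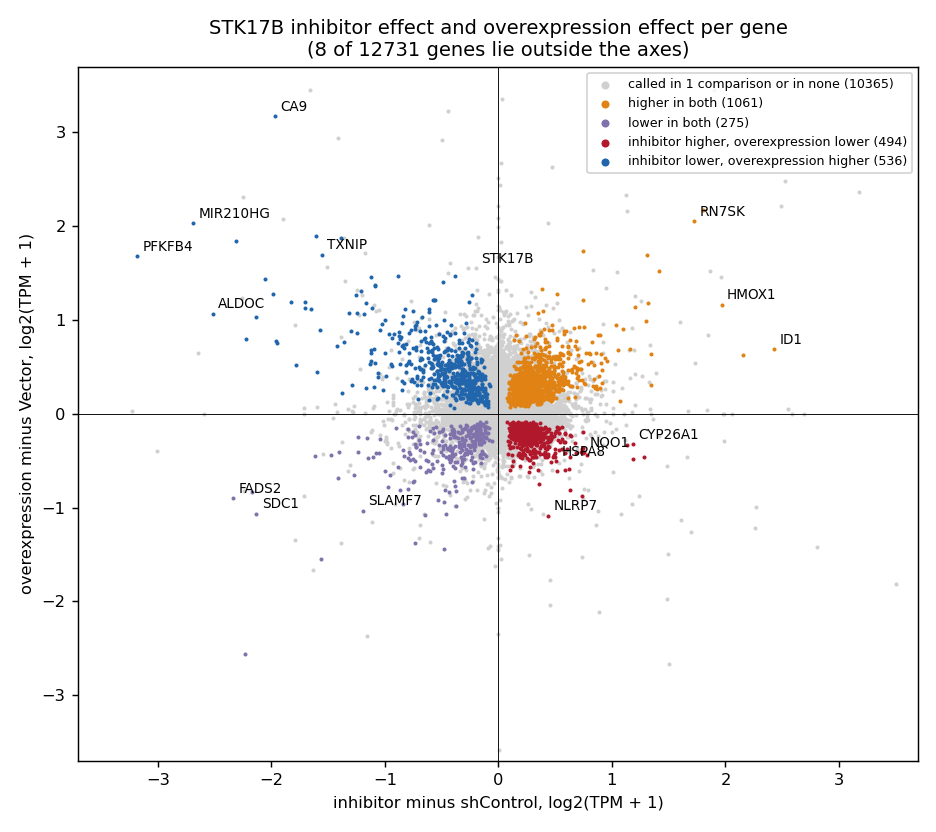
Each point is a tested gene, with the inhibitor effect on the x axis and the overexpression effect on the y axis, both as differences of log2(TPM + 1); colours give the class and its number of genes, and 8 genes lie outside the axes. The 536 genes at upper left reach farther from 0 than the 494 genes at lower right, with CA9, MIR210HG and PFKFB4 farthest among the labelled ones.

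The genes that were lower with the inhibitor and higher with overexpression included nearly all tested genes of the hypoxia and glycolysis list. That list was chosen with earlier results of these data known, so its counts are a description. HIF activity was not measured. Of 37 tested genes of the hypoxia and glycolysis list, 36 were called lower with the inhibitor (11.8% of all tested genes were), 37 were called higher with overexpression (26.6% of all) and 36 were mirrored (4.21% of all). The list median was -1.0 for the inhibitor, 0.86 for overexpression and -1.77 for the difference, against 0.08, 0.08 and -0.00 over all tested genes. Of the 26 genes that were mirrored by 2-fold or more in both arms, 13 belong to this list. It stayed at 35 or 36 mirrored genes in every alternative but the 2-fold minimum, exchanged controls and left-out libraries included. EGLN3 and ANGPTL4, also on the list, did not reach the filter. In bulk RNA, fewer cells that express a gene and less RNA per cell cannot be told apart.

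CA9 encodes carbonic anhydrase IX, a membrane enzyme that exports acid and a classic HIF target. CA9 (chr9:35673856-35681159, plus strand) had 0.112 and 0.335 TPM in inhibitor libraries, against 3.18 and 4.43 TPM in shControl libraries, and 29.1 and 28.1 TPM in overexpression libraries, against 2.35 and 2.23 TPM in Vector libraries. It was under 1 TPM in both inhibitor libraries and above 28 TPM in both overexpression libraries, and neither pair overlapped its control. The inhibitor effect was -1.97 (SE 0.13, limma adjusted p = 6.1e-06) and the overexpression effect 3.17 (SE 0.13, limma adjusted p = 4.3e-07), a difference of -5.14 (95% interval -5.55 to -4.73). The log2(TPM + 1) scale understates changes of genes this low.

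PFKFB4 encodes a bifunctional enzyme that sets the level of fructose 2,6-bisphosphate, the allosteric switch of glycolysis. PFKFB4 (chr3:48517684-48562015, minus strand) had 1.05 and 1.37 TPM in inhibitor libraries, against 19.1 and 18.9 TPM in shControl libraries, and 45.6 and 46.1 TPM in overexpression libraries, against 13.1 and 14.2 TPM in Vector libraries. The inhibitor libraries were the lowest of the table by a wide gap and the overexpression libraries the highest. Its inhibitor effect of -3.18 (SE 0.08, limma adjusted p = 8.8e-09) was the most negative of the list, and the difference was -4.86 (SE 0.11). PDK1, a kinase that inhibits pyruvate dehydrogenase, had 12 and 11.6 TPM in inhibitor libraries, against 35.4 and 38.7 TPM in shControl libraries, and 81.4 and 76.6 TPM in overexpression libraries, against 40.0 and 44.3 TPM in Vector libraries.

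MIR210HG is the noncoding host transcript of miR-210, the microRNA most closely tied to hypoxia. MIR210HG (chr11:565660-568457, minus strand) had 0.818 and 1.10 TPM in inhibitor libraries, against 11.8 and 11.4 TPM in shControl libraries, and 43.0 and 40.4 TPM in overexpression libraries, against 8.57 and 10.4 TPM in Vector libraries, a difference between the effects of -4.72 (SE 0.13, limma adjusted p = 2e-08). The MIR210 locus itself (chr11:568089-568198) lies inside the host on the same strand, so reads of the 2 cannot be told apart, and poly(A) libraries do not measure the mature microRNA. It was listed at 0 in both inhibitor and both Vector libraries, at 94.1 and 15.6 TPM in shControl and at 120.1 and 221 TPM in overexpression libraries. The shControl replicates of this short locus differed several-fold. The mature sequence from RefSeq (GRCh38.p14, chr11:568112-568133, minus strand) is shown with its seed, bases 2 to 8, in capitals, because its host is among the farthest mirrored transcripts.
hsa-miR-210-3p: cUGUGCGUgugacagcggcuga

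The glycolytic pathway moved as a block, from glucose entry to lactate. Of its 17 tested members, 16 were mirrored, with a median inhibitor effect of -0.53 and a median overexpression effect of 0.69. ALDOC, an aldolase (chr17:28573115-28577264), had 26.0 and 25.0 TPM in inhibitor libraries, against 154 and 147 TPM in shControl libraries, and 315 and 313 TPM in overexpression libraries, against 152 and 147 TPM in Vector libraries. The replicates of ALDOC agreed within a few percent, and its difference of -3.58 (SE 0.05, limma adjusted p = 2.4e-10) was among the 6 lowest of the ranked genes. ENO2, an enolase, had 4.53 and 4.97 TPM in inhibitor libraries, against 13.4 and 14.8 TPM in shControl libraries, and 50.1 and 47.3 TPM in overexpression libraries, against 13.4 and 11.9 TPM in Vector libraries. The abundant enzymes moved less. GAPDH had 6469 and 6816 TPM in inhibitor libraries, against 8437 and 8479 TPM in shControl libraries, and 9925 and 9900.0 TPM in overexpression libraries, against 7061 and 6948 TPM in Vector libraries, with effects of -0.35 and 0.50. LDHA, which makes lactate, had 598 and 585 TPM in inhibitor libraries, against 1182 and 1183 TPM in shControl libraries, and 1473 and 1490.2 TPM in overexpression libraries, against 941 and 954 TPM in Vector libraries. The glucose transporter SLC2A1 had 18.6 and 19.0 TPM in inhibitor libraries, against 34.8 and 35.6 TPM in shControl libraries, and 45.6 and 47.4 TPM in overexpression libraries, against 27.0 and 24.6 TPM in Vector libraries. HK2, PGK1 and ENO1 were mirrored as well, with inhibitor effects of -0.88, -0.92 and -0.39 and overexpression effects of 0.75, 0.85 and 0.86. PFKL, the liver-type phosphofructokinase, was the exception: it had 186 and 199.7 TPM in inhibitor libraries, against 193 and 192 TPM in shControl libraries, and 312 and 316 TPM in overexpression libraries, against 193 and 185 TPM in Vector libraries, so that its inhibitor effect was -0.00 (limma adjusted p = 0.99) beside an overexpression effect of 0.73.

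HIF targets outside glycolysis did the same. Both secreted factors of the list, all 3 mitochondrial proteins, all 4 collagen-modifying enzymes and all 3 oxygen-dependent hydroxylases and demethylases were mirrored. VEGFA, the main angiogenic growth factor (chr6:43770184-43786487), had 19.3 and 20.2 TPM in inhibitor libraries, against 63.9 and 69.6 TPM in shControl libraries, and 145 and 140.3 TPM in overexpression libraries, against 60.9 and 63.3 TPM in Vector libraries, a difference of -2.89 (SE 0.07). ADM, the vasodilator adrenomedullin, had 0.368 and 0.365 TPM in inhibitor libraries, against 5.33 and 5.42 TPM in shControl libraries, and 8.11 and 7.51 TPM in overexpression libraries, against 4.12 and 4.03 TPM in Vector libraries. BNIP3, a receptor for the removal of mitochondria, had 22.3 and 23.4 TPM in inhibitor libraries, against 90.9 and 92.5 TPM in shControl libraries, and 123 and 119 TPM in overexpression libraries, against 68.0 and 72.2 TPM in Vector libraries. P4HA1, a prolyl hydroxylase for collagen, had 8.80 and 8.38 TPM in inhibitor libraries, against 37.1 and 36.7 TPM in shControl libraries, and 85.1 and 80.8 TPM in overexpression libraries, against 32.6 and 34.9 TPM in Vector libraries, and PLOD1, a lysyl hydroxylase, had inhibitor and overexpression effects of -1.25 and 1.27. EGLN1, the oxygen sensor that marks HIF for destruction, had 25.0 and 23.4 TPM in inhibitor libraries, against 37.6 and 39.3 TPM in shControl libraries, and 63.1 and 59.7 TPM in overexpression libraries, against 31.9 and 33.8 TPM in Vector libraries. The histone demethylase KDM3A had effects of -1.25 and 1.07, and NDRG1, a stress-responsive cytoplasmic protein, of -1.16 and 1.18. ANKRD37, a small ankyrin-repeat protein (chr4:185396021-185400628), had 7.15 and 6.77 TPM in inhibitor libraries, against 31.6 and 32.6 TPM in shControl libraries, and 69.7 and 71.9 TPM in overexpression libraries, against 25.3 and 25.6 TPM in Vector libraries. In all of these genes each inhibitor library lay below both shControl libraries and each overexpression library above both Vector libraries. ADM, BNIP3, P4HA1, PLOD1, EGLN1, KDM3A, NDRG1, PDK1, GAPDH, LDHA, SLC2A1, HK2, PGK1, ENO1 and PFKL were picked from the list by role after their values were seen.

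**Figure D2:**
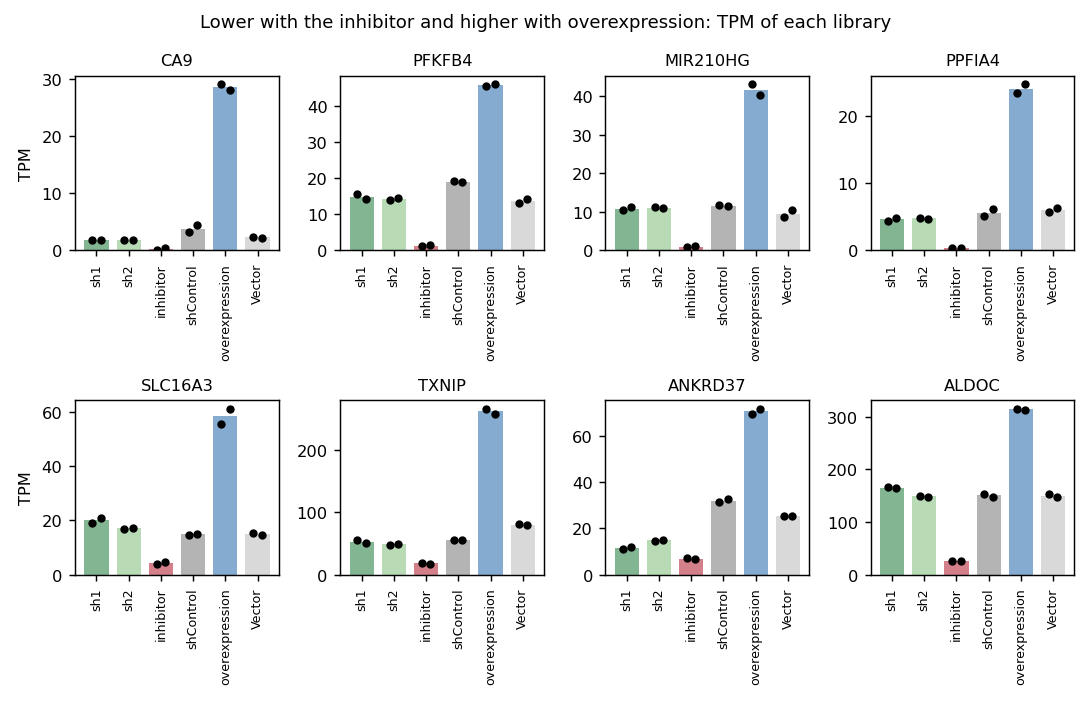
TPM of every library for 8 genes that were lower with the inhibitor and higher with overexpression; bars are group means, points are the 2 libraries, and groups run sh1, sh2, inhibitor, shControl, overexpression and Vector. In each panel the inhibitor libraries are the lowest and the overexpression libraries the highest, as in PFKFB4, where the inhibitor libraries are at 1.05 and 1.37 TPM and the overexpression libraries at 45.6 and 46.1 TPM.

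The start regions of these genes were searched for the HIF core motifs ACGTG and GCGTG on both strands, in RefSeq windows (GRCh38.p14) from 250 bases before to 50 bases after each gene's start. Of the 37 list genes 33 had a window, and 17 of them held ACGTG (51.5%), against 27.8% of the 9677 windows of tested genes and 21.6% of all 27305 windows. ACGTG or GCGTG was found in 26 (78.8%), against 64.7% for tested genes and 48.4% of all. The list was chosen for its known hypoxia genes, so these higher shares follow from its choice and say nothing about these data. The median content of G and C was 70% for the list, 65.3% for tested genes and 58.3% for all windows. A window was found for 76% of the tested genes, so their shares leave out the rest. Among all 536 mirrored genes of this direction, 429 had a window, with a median content of G and C of 68.3% beside 68% for the 869 windows of genes alike higher. ACGTG was in 34.5% of the mirrored windows, against 26.5% of those alike higher and 27.8% for tested genes. GCGTG was in 48%, against 51.6% and 52.2% for these sets, and either motif in 63.4%, against 63.1% and 64.7%, so the class as a whole had no higher share of windows with either motif than the tested genes. In the 397 windows of this class without the hypoxia list, ACGTG was in 33% and either motif in 62.2%. The opposite mirrored class, higher with the inhibitor, had ACGTG in 31.8% of its 421 windows, GCGTG in 59.1% and either motif in 72.4%. Genes alike lower had ACGTG in 29.1% of 213 windows and either motif in 62%. A share of ACGTG above that of all tested genes was thus not particular to genes lower with the inhibitor. A match is a run of letters and not a site at which a factor was measured. Below are the windows of the 4 list genes that ranked highest among the mirrored ones, with the matches in capitals. CA9 is at chr9:35673678-35673977 (plus strand), PFKFB4 at chr3:48556754-48557053 (minus), MIR210HG at chr11:568408-568707 (minus) and ANKRD37 at chr4:185396591-185396890 (plus). These RefSeq starts can lie inside the gene bounds given above, which come from another annotation. A match on the other strand reads CACGT here. ANKRD37 holds 3 matches, 2 of which overlap on opposite strands, and MIR210HG holds 2.
CA9: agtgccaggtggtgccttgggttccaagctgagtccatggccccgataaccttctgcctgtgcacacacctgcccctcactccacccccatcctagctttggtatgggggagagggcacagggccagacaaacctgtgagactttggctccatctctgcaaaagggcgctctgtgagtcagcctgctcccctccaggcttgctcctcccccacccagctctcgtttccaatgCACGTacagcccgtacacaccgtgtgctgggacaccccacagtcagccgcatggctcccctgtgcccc
PFKFB4: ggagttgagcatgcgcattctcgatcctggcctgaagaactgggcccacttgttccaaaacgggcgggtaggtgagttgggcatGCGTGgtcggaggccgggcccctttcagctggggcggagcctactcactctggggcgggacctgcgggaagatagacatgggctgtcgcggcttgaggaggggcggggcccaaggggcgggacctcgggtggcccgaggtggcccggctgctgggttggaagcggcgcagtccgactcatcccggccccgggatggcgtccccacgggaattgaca
MIR210HG: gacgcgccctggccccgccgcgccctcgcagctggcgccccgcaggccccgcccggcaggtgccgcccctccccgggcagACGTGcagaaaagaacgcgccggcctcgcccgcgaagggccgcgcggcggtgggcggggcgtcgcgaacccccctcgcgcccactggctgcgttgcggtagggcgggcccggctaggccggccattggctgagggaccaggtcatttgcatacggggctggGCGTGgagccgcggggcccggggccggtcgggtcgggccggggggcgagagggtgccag
ANKRD37: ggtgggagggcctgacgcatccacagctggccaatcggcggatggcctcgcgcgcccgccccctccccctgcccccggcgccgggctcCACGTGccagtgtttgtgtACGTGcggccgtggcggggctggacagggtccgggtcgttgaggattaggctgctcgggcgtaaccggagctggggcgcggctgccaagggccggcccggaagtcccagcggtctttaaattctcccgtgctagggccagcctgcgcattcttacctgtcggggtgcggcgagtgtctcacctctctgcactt

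Genes outside the hypoxia list took the other places in this class. The list does not hold every HIF target, so a gene outside it can still belong to the hypoxia response. PPFIA4, a liprin scaffold protein (chr1:203026498-203078740), had 0.304 and 0.357 TPM in inhibitor libraries, against 5.14 and 6.09 TPM in shControl libraries, and 23.4 and 24.7 TPM in overexpression libraries, against 5.70 and 6.34 TPM in Vector libraries. SLC16A3, the monocarboxylate transporter that exports lactate (chr17:82228397-82261129), had 3.78 and 4.69 TPM in inhibitor libraries, against 14.7 and 15.1 TPM in shControl libraries, and 55.6 and 61.2 TPM in overexpression libraries, against 15.4 and 14.6 TPM in Vector libraries, a difference of -3.50 (SE 0.12). TXNIP binds thioredoxin and restrains glucose uptake, and its RNA is known to follow glucose supply. TXNIP (chr1:145992435-145996600) had 19.2 and 17.4 TPM in inhibitor libraries, against 55.5 and 56.2 TPM in shControl libraries, and 265 and 257 TPM in overexpression libraries, against 80.9 and 79.1 TPM in Vector libraries, a difference of -3.25 (SE 0.07, limma adjusted p = 4.8e-09). TXNIP thus had the same direction in both arms as the glucose transporter SLC2A1. The mTORC1 inhibitor DDIT4 had 72.3 and 71.3 TPM in inhibitor libraries, against 285 and 274 TPM in shControl libraries, and 500.1 and 530.3 TPM in overexpression libraries, against 308 and 299.9 TPM in Vector libraries. VLDLR, a lipoprotein receptor, had 0.739 and 0.392 TPM in inhibitor libraries, against 4.43 and 4.60 TPM in shControl libraries, and 11.2 and 12.1 TPM in overexpression libraries, against 4.27 and 4.87 TPM in Vector libraries. Other genes mirrored by at least 2-fold in both arms were HILPDA, a lipid droplet protein, INSIG2, an inhibitor of SREBP processing, CDKN1C, an inhibitor of cell division, and EFNA3, a membrane-bound ligand.

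Smaller mirrored changes of the same direction included 2 myeloma oncogenes. MAF, a transcription factor and myeloma oncogene, had 90.7 and 88.0 TPM in inhibitor libraries, against 116 and 122 TPM in shControl libraries, and 226 and 219 TPM in overexpression libraries, against 166 and 178 TPM in Vector libraries. FGFR3, a growth factor receptor that is an oncogene in part of myelomas, had 988 and 1030.5 TPM in inhibitor libraries, against 1088 and 1096 TPM in shControl libraries, and 1417 and 1415 TPM in overexpression libraries, against 1233 and 1232 TPM in Vector libraries. Its effects of -0.11 and 0.20 were small, and the inhibitor effect no longer passed after quantile normalization (-0.06) nor the overexpression effect under the median of ratios (0.10). TRAF1, an adaptor and target of NF-kB, had 1.19 and 1.33 TPM in inhibitor libraries, against 2.05 and 2.56 TPM in shControl libraries, and 7.11 and 6.99 TPM in overexpression libraries, against 3.13 and 3.20 TPM in Vector libraries. ISG20, an exonuclease induced by interferon, had effects of -0.54 and 0.46. In the list of 15 tested myeloma oncogenes and D cyclins, MAF and FGFR3 were the only mirrored genes, and 1 was alike higher and 3 alike lower. Of all tested genes 4.21% were mirrored in this direction, 8.33% alike higher and 2.16% alike lower.

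In the opposite class, higher with the inhibitor and lower with overexpression, no gene reached 2-fold in both arms, and genes for ribosome building and protein folding were numerous. Of 30 genes of the MYC and ribosome biogenesis list, 25 were called higher with the inhibitor and none lower. With overexpression 24 were called lower and none higher, and 21 were mirrored (3.88% of all tested genes were). The list median was 0.28 for the inhibitor, -0.24 for overexpression and 0.49 for the difference. RRP12, a factor for the export of ribosomal subunits (chr10:97356358-97426076), had 53.9 and 55.5 TPM in inhibitor libraries, against 38.3 and 39.7 TPM in shControl libraries, and 27.2 and 26.0 TPM in overexpression libraries, against 37.4 and 36.3 TPM in Vector libraries. Its libraries separated in both arms, and the difference was 0.94 (SE 0.06, limma adjusted p = 7.9e-06). UTP20, a component of the small-subunit processome, had 17.7 and 16.2 TPM in inhibitor libraries, against 12.6 and 13.5 TPM in shControl libraries, and 7.44 and 6.53 TPM in overexpression libraries, against 12.2 and 12.6 TPM in Vector libraries. GRWD1, a chaperone for ribosomal proteins, had 133 and 138 TPM in inhibitor libraries, against 88.8 and 91.1 TPM in shControl libraries, and 59.8 and 60.1 TPM in overexpression libraries, against 74.7 and 73.9 TPM in Vector libraries. RRS1, an assembly factor of the large subunit, had 125 and 123 TPM in inhibitor libraries, against 83.5 and 83.9 TPM in shControl libraries, and 63.0 and 60.9 TPM in overexpression libraries, against 82.6 and 78.4 TPM in Vector libraries. ODC1, the first enzyme of polyamine synthesis and a MYC target, had 403 and 397 TPM in inhibitor libraries, against 294 and 292 TPM in shControl libraries, and 181 and 181 TPM in overexpression libraries, against 224 and 219 TPM in Vector libraries, and nucleolin (NCL) had 1262 and 1182 TPM in inhibitor libraries, against 1015 and 1012 TPM in shControl libraries, and 788 and 778 TPM in overexpression libraries, against 903 and 905 TPM in Vector libraries. FBL, BOP1 and NAT10 were not mirrored: the inhibitor effects were -0.12, -0.02 and 0.12, none of them called. ODC1, NCL, FBL, BOP1 and NAT10 were chosen after their values were seen. With a library left out the count of mirrored genes was 17 to 20, and it was 19 to 24 under the other scalings and with the controls exchanged. Ribosomal proteins themselves did not share this pattern. Of 40 tested, 29 were lower with the inhibitor, and 20 lower and 1 higher with overexpression, beside 11.8%, 10.3% and 26.6% of all tested genes. Alike lower were 16 (7 after quantile normalization), beside 2.16% of all tested genes.

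PNO1, which assembles the small ribosomal subunit (chr2:68157844-68176238, plus strand), ranked high in this class without being on the list. PNO1 had 47.9 and 47.7 TPM in inhibitor libraries, against 34.5 and 34.3 TPM in shControl libraries, and 19.7 and 20.7 TPM in overexpression libraries, against 29.4 and 29.2 TPM in Vector libraries, a difference of 0.98 (SE 0.06, limma adjusted p = 2.5e-06). Its start window holds CACGTG, the palindromic core bound by MYC and other E-box factors, which also contains ACGTG on both strands. Of 421 windows found for the 494 genes of this class 76 held CACGTG (18.1%), against 12.8% in the mirrored class that was lower with the inhibitor, 11.4% among genes alike higher, 10.7% for tested genes and 7.43% of all windows. Among the 213 windows of genes alike lower the share was 9.86%. The ribosome biogenesis list had a window for 23 of 30 genes, and 10 of these held CACGTG (43.5%). That list is named for MYC and was chosen with earlier results of these data known, so its share says nothing about these data. The PNO1 window (chr2:68157638-68157937, GRCh38.p14) is shown because it ranked among the 8 leading genes and holds the motif, which is in capitals.
PNO1: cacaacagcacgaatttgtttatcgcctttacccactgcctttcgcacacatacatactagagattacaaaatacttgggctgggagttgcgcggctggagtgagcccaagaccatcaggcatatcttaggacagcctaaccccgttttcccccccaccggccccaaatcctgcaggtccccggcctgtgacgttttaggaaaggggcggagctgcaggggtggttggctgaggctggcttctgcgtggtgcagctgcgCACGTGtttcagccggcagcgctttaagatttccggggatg

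Chaperones and the proteasome had list medians of 0.11 and 0.10 for the inhibitor, near the 0.08 over all tested genes. For overexpression their medians were -0.18 and -0.19, against 0.08 over all. HSPA8, the constitutive HSP70 of the cytosol (chr11:123057489-123063230), had 2143 and 2148 TPM in inhibitor libraries, against 1519 and 1495 TPM in shControl libraries, and 908 and 915 TPM in overexpression libraries, against 1305 and 1284 TPM in Vector libraries. Its effects were 0.51 and -0.51, a difference of 1.02 (SE 0.03, limma adjusted p = 3.8e-08), and neither pair overlapped. Of 19 tested chaperone genes, 9 were called higher and 3 lower with the inhibitor, 14 lower and none higher with overexpression, and 8 were mirrored, beside 28%, 11.8%, 10.3%, 26.6% and 3.88% of all tested genes. The 8 were 4 under either rescaling, and the 9 and the 8 were each 5 without the first inhibitor library or either shControl library. DNAJB1, a cochaperone of HSP70, had 78.1 and 75.3 TPM in inhibitor libraries, against 61.4 and 64.7 TPM in shControl libraries, and 61.0 and 62.0 TPM in overexpression libraries, against 91.6 and 91.8 TPM in Vector libraries. The Vector libraries stood above all others for the inducible copies of HSP70: HSPA1B had 31.9 and 36.9 TPM in inhibitor libraries, against 34.6 and 32.8 TPM in shControl libraries, and 37.6 and 39.4 TPM in overexpression libraries, against 115 and 114 TPM in Vector libraries. HSPA1A, a near-identical copy whose reads may be shared with it, had 5.90 and 5.35 TPM in inhibitor libraries, against 9.68 and 6.94 TPM in shControl libraries, and 8.44 and 7.42 TPM in overexpression libraries, against 23.4 and 23.2 TPM in Vector libraries. The inhibitor libraries overlapped shControl for HSPA1B and lay below it for HSPA1A, and the differences of 1.57 and 0.97 rest on the Vector level and turn negative with the controls exchanged, as does that of DNAJB1. With that exchange the overexpression effects of HSPA1A (-0.05) and DNAJB1 (-0.04) were not called. The inhibitor effect of HSPA1A was not called without the second inhibitor (-0.42) or the first shControl library (-0.26). Of 31 proteasome genes, 15 were higher with the inhibitor, 22 were lower with overexpression, 29 were higher in the difference and 10 were mirrored. The shares over all tested genes were 28%, 10.3%, 17.8% and 3.88%. The 10 were 3 and 4 under the 2 rescalings, 6 without the first inhibitor or the second shControl library, and 26 with the controls exchanged. The 15 were 4 and 7 under the rescalings, 8 without the first inhibitor library and 30 with the controls exchanged. PSMC5, a base ATPase of the proteasome, had 299 and 294 TPM in inhibitor libraries, against 243 and 241 TPM in shControl libraries, and 174 and 177 TPM in overexpression libraries, against 217 and 211 TPM in Vector libraries. PSMC2, another base ATPase, had effects of 0.23 and -0.31, and the first of these was lost under both rescalings (0.15 and 0.11), without the first inhibitor library (0.21) and without the first shControl library (0.20).

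The genes that ranked highest in this class came from no single list. TAF9B, a subunit of the TFIID transcription factor, had 27.8 and 25.6 TPM in inhibitor libraries, against 16.8 and 17.0 TPM in shControl libraries, and 10.4 and 8.89 TPM in overexpression libraries, against 17.3 and 18.0 TPM in Vector libraries. MT1X, a metal-binding metallothionein with close copies in the genome, had 60.6 and 55.8 TPM in inhibitor libraries, against 40.8 and 39.7 TPM in shControl libraries, and 20.5 and 24.5 TPM in overexpression libraries, against 35.1 and 34.6 TPM in Vector libraries. Its inhibitor effect of 0.52 was not called without the first inhibitor library (0.46) or the second shControl library (0.50), nor after quantile normalization (0.39). PLEKHO1, a pleckstrin homology protein, had 339.8 and 333 TPM in inhibitor libraries, against 239 and 237 TPM in shControl libraries, and 124 and 125 TPM in overexpression libraries, against 179 and 163 TPM in Vector libraries. NLRP7, an innate immune sensor, had 48.5 and 49.1 TPM in inhibitor libraries, against 37.1 and 34.6 TPM in shControl libraries, and 13.4 and 13.8 TPM in overexpression libraries, against 31.2 and 28.9 TPM in Vector libraries, and CYP26A1, which degrades retinoic acid, had 21.1 and 21.7 TPM in inhibitor libraries, against 9.04 and 8.71 TPM in shControl libraries, and 5.79 and 5.49 TPM in overexpression libraries, against 7.0 and 7.62 TPM in Vector libraries. NLRP7 changed more with overexpression (-1.09) and CYP26A1 more with the inhibitor (1.18). Their differences of 1.52 and 1.51 were among the 6 highest of the ranked genes. Oxidant-handling enzymes were also found here: of 24 tested NRF2 and glutathione genes, 15 were higher and 2 lower with the inhibitor, 4 higher and 10 lower with overexpression, and 6 were mirrored with the inhibitor higher, beside 28%, 11.8%, 26.6%, 10.3% and 3.88% of all tested genes. The 4 higher with overexpression were 1 under either rescaling and without the second Vector or second overexpression library, and 8 with the controls exchanged. NQO1, a quinone reductase, had 65.2 and 66.7 TPM in inhibitor libraries, against 37.3 and 40.0 TPM in shControl libraries, and 26.3 and 27.5 TPM in overexpression libraries, against 36.6 and 35.3 TPM in Vector libraries. ME1, malic enzyme, had 14.4 and 14.9 TPM in inhibitor libraries, against 7.90 and 8.38 TPM in shControl libraries, and 6.4 and 6.28 TPM in overexpression libraries, against 8.75 and 9.19 TPM in Vector libraries. EPHX1, an epoxide hydrolase, had 34.0 and 33.5 TPM in inhibitor libraries, against 24.6 and 22.9 TPM in shControl libraries, and 27.4 and 28.8 TPM in overexpression libraries, against 38.9 and 38.1 TPM in Vector libraries. The Vector level of EPHX1 exceeded that of shControl, and with the controls exchanged both of its effects changed sign (-0.19 and 0.24). Of 30 G1/S and replication genes 15 were higher with the inhibitor, 11 lower with overexpression and 6 mirrored, among them UNG with effects of 0.28 and -0.50, GINS3 with 0.39 and -0.43 and MCM5 with 0.34 and -0.17. The count of 6 was 4 and 3 under the 2 rescalings, 3 without the first inhibitor library and 17 with the controls exchanged. A call was lost for UNG without the first inhibitor library (0.24) and after quantile normalization (0.15), for GINS3 without the second shControl library (0.34) and for MCM5 without the first Vector (-0.16) or the second overexpression library (-0.16). HLA-DMA, a chaperone of antigen loading, had effects of 0.27 and -0.49, and of 15 B cell and MHC class II genes 2 were mirrored. Exchanging the controls gave 4 genes of that list mirrored with the inhibitor lower.

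**Figure D3:**
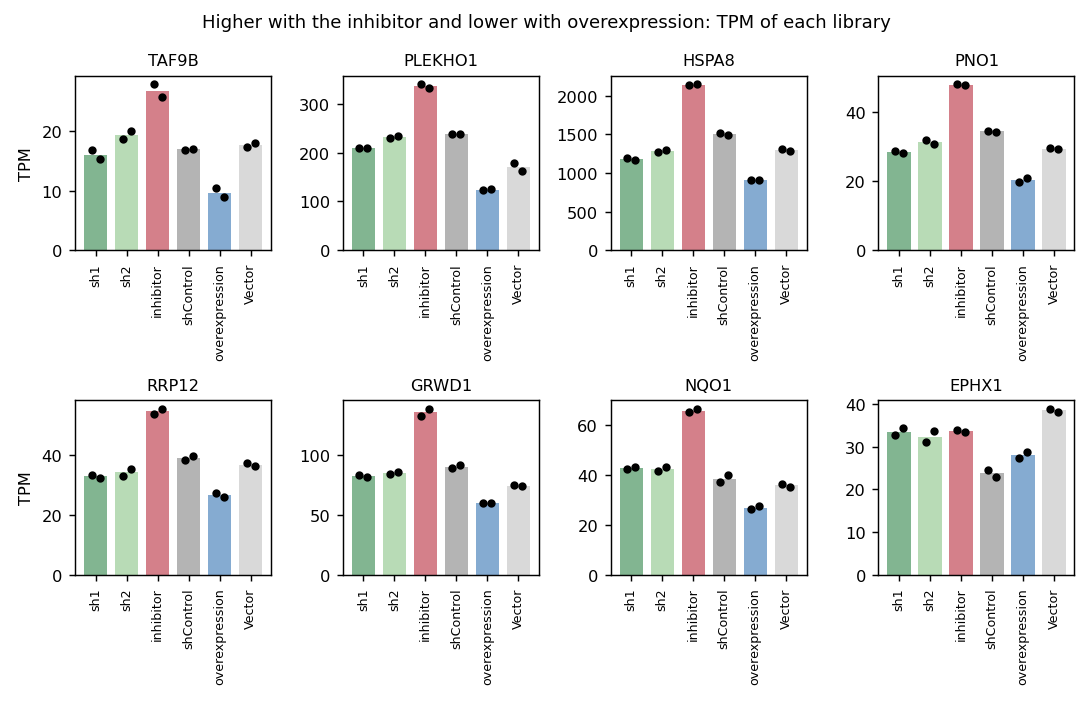
TPM of every library for 8 genes that were higher with the inhibitor and lower with overexpression, with bars for group means, points for the 2 libraries and groups in the order sh1, sh2, inhibitor, shControl, overexpression and Vector. The inhibitor libraries are the highest of the 4 contrasted groups in every panel but EPHX1, where Vector is highest, at 38.9 and 38.1 TPM.

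The ATF4 list, genes of the amino acid response, had members in 3 of the 4 classes called in both arms. Of 32 tested genes, 6 were mirrored with the inhibitor higher, 5 mirrored with the inhibitor lower and 8 alike lower. The shares over all tested genes were 3.88%, 4.21% and 2.16%. The 5 were DDIT4, VEGFA, VLDLR, ATF5 and STC2, a secreted glycoprotein that had 2.75 and 2.46 TPM in inhibitor libraries, against 4.89 and 4.97 TPM in shControl libraries, and 7.48 and 7.53 TPM in overexpression libraries, against 5.21 and 5.66 TPM in Vector libraries. DDIT4 and VEGFA are HIF targets as well, and VEGFA stands on the hypoxia list. The 6 included ATF4 itself, asparagine synthetase and the amino acid transporters SLC7A5 and SLC1A5. These counts moved with the settings. The 6 were 1 without the second inhibitor or the first shControl library, 3 under either rescaling and 9 with the controls exchanged. The 8 were 4 without the first inhibitor or first overexpression library, 5 without the first Vector or either shControl library, and 1 with the controls exchanged.

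Genes that were lower in both arms were led by markers of plasma cells. Of 16 tested plasma cell genes, 13 were called lower and 1 higher with the inhibitor, beside 11.8% and 28% of all tested genes. With overexpression 11 were lower and 2 higher, beside 10.3% and 26.6%. Alike lower were 10 (2.16% of all tested genes were), and the list medians were -0.37 and -0.29. SDC1, the surface proteoglycan that defines plasma cells (chr2:20200797-20225433, minus strand), had 12.7 and 12.5 TPM in inhibitor libraries, against 57.7 and 59.4 TPM in shControl libraries, and 23.3 and 24.8 TPM in overexpression libraries, against 51.5 and 51.2 TPM in Vector libraries. The inhibitor libraries were the lowest of the table, and the overexpression libraries lay between them and both controls. The inhibitor effect of -2.13 (SE 0.04, limma adjusted p = 4.5e-09) was farther from 0 than the overexpression effect of -1.06 (SE 0.04), and the difference of -1.07 was called (limma adjusted p = 3.4e-06). SLAMF7, a surface receptor and antibody target in myeloma (chr1:160739057-160754821), had 8.24 and 8.35 TPM in inhibitor libraries, against 18.9 and 21.7 TPM in shControl libraries, and 7.40 and 7.07 TPM in overexpression libraries, against 15.2 and 16.5 TPM in Vector libraries. Its effects of -1.19 and -1.03 differed by -0.16 (95% interval -0.43 to 0.11, limma adjusted p = 0.33), which was not called. IRF4, the transcription factor on which myeloma cells depend, had 88.9 and 87.8 TPM in inhibitor libraries, against 111 and 115 TPM in shControl libraries, and 88.8 and 85.5 TPM in overexpression libraries, against 111 and 112 TPM in Vector libraries. XBP1, the secretory transcription factor, had effects of -0.37 and -0.25, the coactivator POU2AF1 of -0.48 and -0.44, the survival receptor TNFRSF17 of -0.22 and -0.35, and the chaperone MZB1 of -0.60 and -0.18. PRDM1, a transcription repressor that promotes the plasma cell state, was called lower with the inhibitor alone (-0.37, beside -0.14 with overexpression, a difference that was not called). ELL2, an elongation factor of antibody mRNA, was called lower with overexpression alone (-0.75, beside -0.10), and here the difference of 0.65 was called (limma adjusted p = 0.0034). Exceptions included CD38, another surface antibody target, which was called higher with the inhibitor (0.60, beside -0.25 with overexpression, a called difference), and TXNDC5, a folding enzyme of the endoplasmic reticulum, with effects of -0.39 and 0.07, the second of which was -0.03 and not called under the median of ratios and was lost without any 1 of the 8 libraries (0.05 to 0.08). CD38 was not called without the second inhibitor library (0.53) or the first shControl library (0.52), nor PRDM1 without the second shControl library (-0.32), nor the overexpression effect of XBP1 with the controls exchanged (-0.06). With the controls exchanged the inhibitor effect of TNFRSF17 turned to 0.12 and the overexpression effect of MZB1 to 0.11. IRF4, XBP1, POU2AF1, TNFRSF17, MZB1 and PRDM1 were chosen after their values were seen. With a library left out the count of genes alike lower was 10 each time, and it was 7 with the controls exchanged.

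Genes of lipid synthesis were also found among those lower in both arms. Of 20 fatty acid genes, 11 were lower and 4 higher with the inhibitor, beside 11.8% and 28% of all tested genes. With overexpression 7 were lower and none higher, beside 10.3% and 26.6%. Alike lower were 5 (2.16% of all tested genes were), or 8 and 7 under the 2 rescalings, and 1 was mirrored. The list median was -0.24 for the inhibitor and -0.07 for overexpression. The 4 higher were 1 without the first shControl library, and with the controls exchanged 6 genes were mirrored with the inhibitor lower. FASN, fatty acid synthase (chr17:82078333-82098332), had 88.0 and 96.3 TPM in inhibitor libraries, against 168 and 169.6 TPM in shControl libraries, and 86.1 and 88.4 TPM in overexpression libraries, against 156 and 153 TPM in Vector libraries. Its effects of -0.87 and -0.82 differed by -0.05 (95% interval -0.19 to 0.08), not a called difference. SCD, the desaturase for oleate, had 99.5 and 96.1 TPM in inhibitor libraries, against 238 and 238 TPM in shControl libraries, and 157 and 151 TPM in overexpression libraries, against 240.2 and 246 TPM in Vector libraries. FADS2, a desaturase for polyunsaturated fatty acids (chr11:61792980-61867354, plus strand), had 19.3 and 19.4 TPM in inhibitor libraries, against 100.01 and 103 TPM in shControl libraries, and 42.6 and 43.4 TPM in overexpression libraries, against 82.2 and 80.4 TPM in Vector libraries, with the inhibitor libraries far under the rest. It overlaps FADS1 on the other strand (chr11:61799625-61829318), and whether counting used strand is not stated. FADS1 had effects of -1.47 and -0.44. SREBF1, which encodes the SREBP factor of this pathway, was lower with the inhibitor alone: it had 65.7 and 73.6 TPM in inhibitor libraries, against 123 and 126 TPM in shControl libraries, and 145 and 151 TPM in overexpression libraries, against 149 and 148 TPM in Vector libraries, and the difference of -0.82 was called (limma adjusted p = 2.5e-05).

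Of 24 cholesterol genes, 15 were lower with the inhibitor and 20 with overexpression, and 14 were alike lower, beside 11.8%, 10.3% and 2.16% of all tested genes. The list median was -0.24 for the inhibitor and -0.42 for overexpression. FDFT1, squalene synthase, had 101 and 103 TPM in inhibitor libraries, against 151 and 146 TPM in shControl libraries, and 102 and 102 TPM in overexpression libraries, against 144 and 146 TPM in Vector libraries. INSIG1, the sterol-responsive brake on SREBP, had 175 and 169 TPM in inhibitor libraries, against 348 and 342 TPM in shControl libraries, and 223 and 211 TPM in overexpression libraries, against 326 and 338 TPM in Vector libraries. Some enzymes fell more with overexpression: CYP51A1 had effects of -0.24 and -0.72, a called difference of 0.49 (limma adjusted p = 0.00054). SQLE, squalene epoxidase, had 38.0 and 35.4 TPM in inhibitor libraries, against 37.8 and 40.4 TPM in shControl libraries, and 21.3 and 21.1 TPM in overexpression libraries, against 36.3 and 36.7 TPM in Vector libraries, with an inhibitor effect of -0.09 that was not called. STARD4, a sterol carrier, was lower with the inhibitor alone (-0.93, beside 0.09). PMVK was the only gene of the list alike higher, and its overexpression effect was not called under the median of ratios (0.08) or with the controls exchanged (0.09). FDFT1, INSIG1 and PMVK were chosen after their values were seen.

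Other leading genes that were lower in both arms had varied roles. CXCL10, a chemokine induced by interferon, had 16.9 and 14.2 TPM in inhibitor libraries, against 26.9 and 30.2 TPM in shControl libraries, and 18.1 and 15.2 TPM in overexpression libraries, against 27.8 and 39.9 TPM in Vector libraries. GAS6, a ligand of TAM receptor kinases, had 7.11 and 7.05 TPM in inhibitor libraries, against 21.1 and 19.9 TPM in shControl libraries, and 12.1 and 12.6 TPM in overexpression libraries, against 20.1 and 20.8 TPM in Vector libraries. LGALS17A, a galectin pseudogene, had 3.62 and 4.17 TPM in inhibitor libraries, against 8.67 and 5.83 TPM in shControl libraries, and 4.61 and 5.60 TPM in overexpression libraries, against 13.7 and 16.1 TPM in Vector libraries, with widely spaced shControl libraries and an inhibitor effect that was not called without the first of them (-0.48) or without the first inhibitor library (-0.65), and the noncoding LINC00263 had 5.34 and 4.59 TPM in inhibitor libraries, against 24.9 and 26.7 TPM in shControl libraries, and 21.8 and 21.4 TPM in overexpression libraries, against 38.8 and 39.6 TPM in Vector libraries. The overexpression effects of LGALS17A (-0.42) and LINC00263 (-0.25) were not called with the controls exchanged. BCL2L1, which encodes the survival protein BCL-XL, had 90.1 and 92.6 TPM in inhibitor libraries, against 159.7 and 159.9 TPM in shControl libraries, and 118 and 122 TPM in overexpression libraries, against 166 and 168 TPM in Vector libraries. PECAM1, an adhesion protein on the list of endothelial markers that plasma cells also carry, had 0.788 and 0.919 TPM with the inhibitor, 4.82 and 4.17 TPM in shControl, 0.985 and 0.996 TPM with overexpression and 5.03 and 4.62 TPM in Vector, and was named after its values were seen. The summed stromal and endothelial list, of which 2 of 13 markers passed the filter and 2 were at 0 in every library, was 2.32 to 2.37 TPM with the inhibitor, 5.65 to 8.92 TPM in shControl, 3.34 to 3.93 TPM with overexpression and 6.79 to 7.99 TPM in Vector. The part of other cells in these values was not tested.

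Genes higher in both arms, 1061, formed the largest of the 4 classes called in both. Under the 2 rescalings genes alike lower, at 551 and 530, outnumbered genes alike higher, which shrank to 398 and 420. The lysosome and autophagy list had 7 of its 30 tested genes here, 2 under either rescaling, and 4 and 3 without the first and the second shControl library. Of all tested genes 8.33% were alike higher. In the exchange of controls 2 of the list were here and 15 were mirrored with the inhibitor lower. Of the 1061 genes 868 (81.8%) had no called difference between the effects, 105 were lower and 88 higher in the difference. HMOX1, heme oxygenase, which frees iron from heme (chr22:35380361-35394214, plus strand), had 91.0 and 93.5 TPM in inhibitor libraries, against 22.2 and 23.6 TPM in shControl libraries, and 61.6 and 64.9 TPM in overexpression libraries, against 27.1 and 28.2 TPM in Vector libraries. Both pairs lay above every control library. Its effects of 1.97 and 1.16 (SE 0.07 each) differed by 0.80 (limma adjusted p = 0.00032). So within the NRF2 list HMOX1 was higher in both arms while NQO1 and ME1 were mirrored. SPINK2, a protease inhibitor, had 4.85 and 5.93 TPM in inhibitor libraries, against 1.51 and 1.62 TPM in shControl libraries, and 6.39 and 8.25 TPM in overexpression libraries, against 1.71 and 1.43 TPM in Vector libraries. AMN, part of the vitamin B12 receptor, had 11.5 and 12.8 TPM in inhibitor libraries, against 3.90 and 4.69 TPM in shControl libraries, and 7.55 and 7.90 TPM in overexpression libraries, against 3.49 and 2.28 TPM in Vector libraries. ADAMTS10, a secreted metalloprotease, had 7.21 and 8.18 TPM in inhibitor libraries, against 3.42 and 3.08 TPM in shControl libraries, and 9.10 and 8.82 TPM in overexpression libraries, against 4.39 and 3.93 TPM in Vector libraries. F2R, the thrombin receptor, had 6.03 and 6.47 TPM in inhibitor libraries, against 2.29 and 2.5 TPM in shControl libraries, and 11.1 and 11.1 TPM in overexpression libraries, against 5.35 and 5.62 TPM in Vector libraries. RNF207 had effects of 0.90 and 0.84, ADSSL1 of 0.87 and 0.84, and GAMT, which makes creatine, of 0.82 and 0.77. CD7, a surface protein of T and NK cells, had 222 and 235 TPM in inhibitor libraries, against 139 and 139 TPM in shControl libraries, and 411 and 442 TPM in overexpression libraries, against 231 and 218 TPM in Vector libraries. For ADSSL1, GAMT, F2R and CD7 the alike call rested on which controls are shControl: with the controls exchanged the inhibitor effects were -0.28, -0.20, 0.16 and 0.02, the last 2 of them not called. CD3E, the other T cell marker above the filter, had 4.36 and 5.26 TPM with the inhibitor, 3.46 and 3.23 TPM in shControl, 6.38 and 7.74 TPM with overexpression and 3.67 and 3.76 TPM in Vector, and 3 of the 14 listed T and NK markers were at 0 in every library. The inhibitor effect of CD3E, 0.41, was 0.38 without the second shControl library and 0.30 without the second inhibitor library. The summed T and NK list, most of it CD7, was 227 to 242 TPM with the inhibitor, 143.6 to 143.7 TPM in shControl, 418 to 451 TPM with overexpression and 223 to 236 TPM in Vector. The part of such cells was not tested.

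Of 130 short RNA genes tested, 4 were higher in both arms (8.33% of all tested genes were) and 99 were called in neither. The 3 that ranked highest among them are made by RNA polymerase III. RN7SK, which holds back the elongation factor P-TEFb (chr6:52995621-52995948), had 45.5 and 46.6 TPM in inhibitor libraries, against 12.4 and 14.2 TPM in shControl libraries, and 129 and 125 TPM in overexpression libraries, against 28.4 and 31.5 TPM in Vector libraries. Its effects of 1.73 and 2.05 differed by -0.33 (95% interval -0.67 to 0.01). RN7SL2, an RNA of the signal recognition particle, had 519 and 552 TPM in inhibitor libraries, against 236 and 99.4 TPM in shControl libraries, and 211 and 464 TPM in overexpression libraries, against 61.4 and 76.5 TPM in Vector libraries, and its near-identical copy RN7SL1 had 444 and 446 TPM in inhibitor libraries, against 237 and 117 TPM in shControl libraries, and 173 and 346 TPM in overexpression libraries, against 61.4 and 117 TPM in Vector libraries. The replicates of shControl and of overexpression lay far apart for both, and the inhibitor effect of RN7SL1 was 0.91 and that of RN7SL2 1.18, not called, without the second shControl library. The inhibitor effect of RN7SL1 was also not called without either inhibitor library (1.42 and 1.41), nor its overexpression effect without the first Vector (1.06) or second overexpression library (1.02), nor the inhibitor effect of RN7SL2 without the second inhibitor library (1.75). With the controls exchanged neither overexpression effect was called (0.55 for RN7SL1 and 1.03 for RN7SL2). These RNAs have no poly(A) tail, so their level after poly(A) selection can move with carry-over, and all short RNA genes together held 7975 to 8408 TPM with the inhibitor, 5425 to 5453 TPM in shControl, 10074 to 10196 TPM with overexpression and 7719 to 8753 TPM in Vector. The part of carry-over was not tested.

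**Figure D4:**
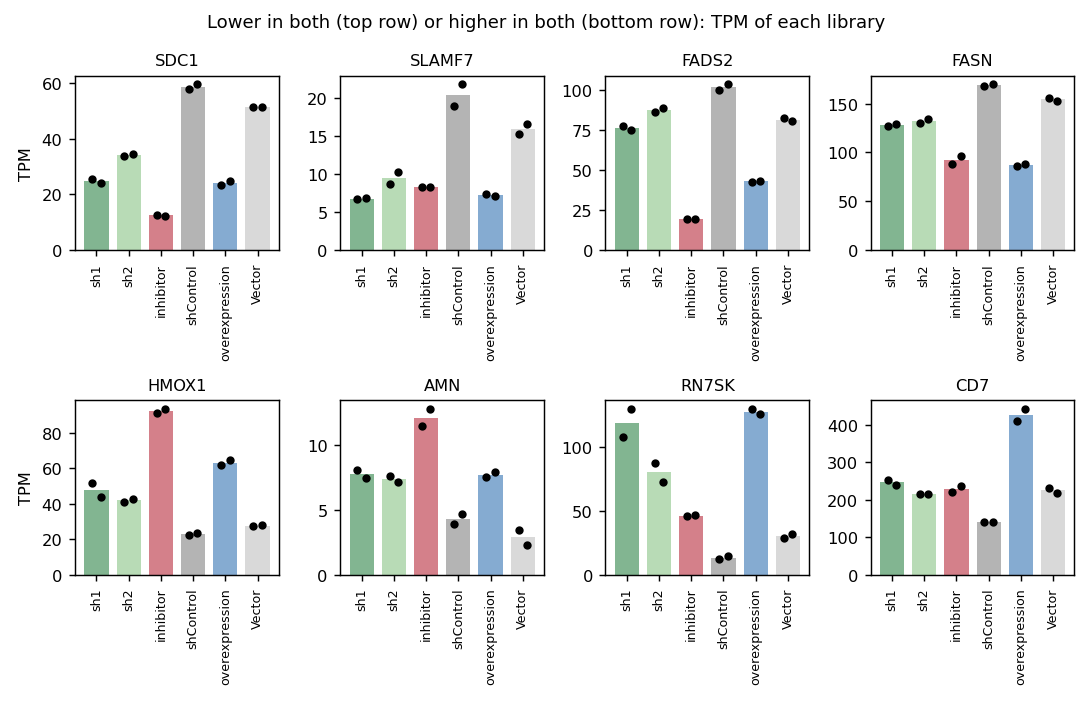
TPM of every library for 4 genes lower in both arms (top) and 4 genes higher in both (bottom), with bars for group means, points for the 2 libraries and groups in the order sh1, sh2, inhibitor, shControl, overexpression and Vector. SDC1 is at 12.7 and 12.5 TPM with the inhibitor and 23.3 and 24.8 TPM with overexpression, below all 4 control libraries, and HMOX1 is above them in both arms.

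GPR75-ASB3, a read-through transcript of neighbouring genes, ranked highest in the difference but was listed at 0 in both shControl libraries, at 3.66 and 3.98 TPM with the inhibitor, 2.93 and 2.08 TPM with overexpression and 7.19 and 4.85 TPM in Vector. Other large differences between the effects came from genes that moved the same way by unequal amounts or in 1 arm alone. ID1, an inhibitor of differentiation factors, had 116 and 116 TPM in inhibitor libraries, against 21.6 and 19.9 TPM in shControl libraries, and 27.3 and 35.0 TPM in overexpression libraries, against 18.3 and 19.4 TPM in Vector libraries. It was called higher in both arms, yet its effects of 2.43 and 0.69 differed by 1.74 (SE 0.13, limma adjusted p = 1.7e-05). CYP1A1, a target of the aryl hydrocarbon receptor, had 7.68 and 8.58 TPM in inhibitor libraries, against 0.772 and 1.37 TPM in shControl libraries, and 8.85 and 8.73 TPM in overexpression libraries, against 4.81 and 5.94 TPM in Vector libraries. Its inhibitor and overexpression libraries were level, and the difference of 1.53 changed sign when the controls were exchanged, since Vector libraries lay above shControl libraries. Its overexpression effect of 0.62 was not called without the first Vector library (0.50). SQSTM1, the autophagy adaptor p62, had 214 and 216 TPM in inhibitor libraries, against 106 and 107 TPM in shControl libraries, and 124 and 124 TPM in overexpression libraries, against 120.0 and 119 TPM in Vector libraries, with an inhibitor effect of 1.01 and an overexpression effect of 0.06 that was not called. ISCU, a scaffold for iron-sulfur clusters, had 393 and 379.9 TPM in inhibitor libraries, against 265 and 267 TPM in shControl libraries, and 239.8 and 231 TPM in overexpression libraries, against 269 and 256 TPM in Vector libraries, and was mirrored, but its overexpression effect was not called without the first Vector (-0.12) or the second overexpression library (-0.13). Of 26 iron-handling genes, 13 were higher and 1 lower with the inhibitor, 4 higher and 3 lower with overexpression, beside 28%, 11.8%, 26.6% and 10.3% of all tested genes. Of these 26, 3 were alike higher and 2 mirrored, where 8.33% and 3.88% of all were. With the controls exchanged 9 were higher with the inhibitor and 12 higher with overexpression. Among feedback genes of ERK signalling, 3 were called with overexpression alone: SPRY1 had effects of -0.09 and 0.72, SPRED1 of -0.27 and 0.47, and DUSP6 of -0.14 and 0.52. The overexpression effect of SPRED1 was not called without the first Vector (0.36) or the first overexpression library (0.40). All 3 differences were called, at -0.81, -0.74 and -0.66. Of the 13 tested genes of that list, 5 were lower and 2 higher in the difference, beside 17.6% and 17.8% of all tested genes.

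**Figure D5:**
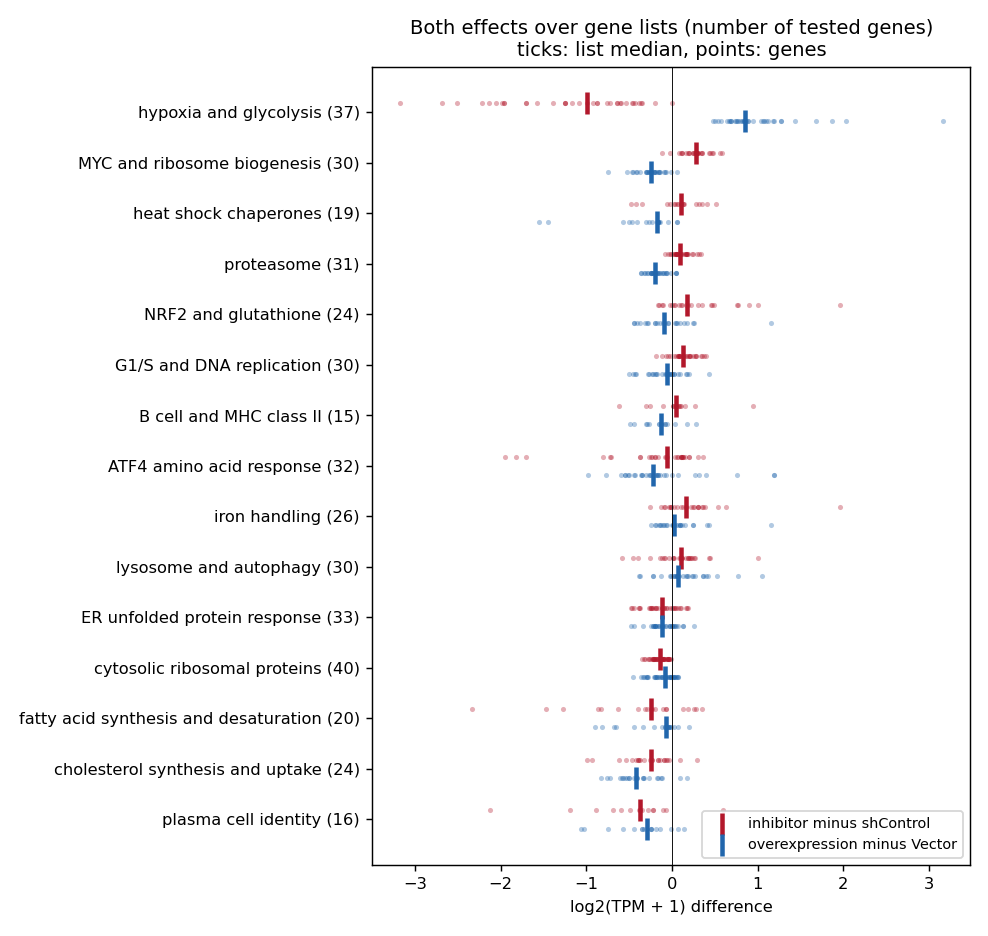
Both effects for 15 gene lists, with each tested gene as a point and the list median as a tick, the inhibitor effect above the overexpression effect in each row, on the log2(TPM + 1) scale. The hypoxia and glycolysis list has the medians that lie farthest apart, at -1.0 and 0.86; ribosome biogenesis lies at 0.28 and -0.24, and the plasma cell list is negative in both, at -0.37 and -0.29.

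Lists of survival and stress genes were mixed. Beside their counts, 3.88% and 4.21% of all tested genes were mirrored with the inhibitor higher and lower. Alike higher were 8.33% of all and alike lower 2.16%. Of 13 BCL2 family genes, BCL2L11 and BMF, which promote cell death, were alike higher, BCL2L1 alike lower and BID mirrored. These 4 were named after their values were seen, and BID was not mirrored under either rescaling. BMF had 59.0 and 59.0 TPM in inhibitor libraries, against 32.8 and 33.9 TPM in shControl libraries, and 72.0 and 71.1 TPM in overexpression libraries, against 44.5 and 47.1 TPM in Vector libraries. Of 19 genes of the p53 list, 2 were mirrored in each direction, 2 alike higher and 1 alike lower, and with the controls exchanged 8 were mirrored with the inhibitor lower. TP53INP1, a p53 target, was lower with the inhibitor alone: it had 3.58 and 3.55 TPM in inhibitor libraries, against 12.5 and 13.2 TPM in shControl libraries, and 32.0 and 29 TPM in overexpression libraries, against 28.2 and 29.8 TPM in Vector libraries. CDKN2D, a CDK4 inhibitor, was mirrored, with 5.39 and 6.02 TPM in inhibitor libraries, against 7.34 and 7.71 TPM in shControl libraries, and 17.6 and 18.3 TPM in overexpression libraries, against 9.34 and 10.7 TPM in Vector libraries. Its inhibitor effect of -0.35 was not called without the first inhibitor library (-0.28) or either shControl library (-0.38 and -0.32). Of 15 NF-kB targets, 3 were mirrored with the inhibitor lower, 1 with it higher, 2 were alike higher and 1 alike lower. NFKBIA, the inhibitory partner of NF-kB, had an inhibitor effect of 1.07 and an overexpression effect of 0.13. The second was called only narrowly, and was lost under both rescalings (0.04 and 0.02), with the replicate block (0.13) and without any 1 of the shControl, Vector or overexpression libraries (0.11 to 0.16). NFKBIA had a difference between the effects of 0.94 (SE 0.06, limma adjusted p = 6.7e-06).

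Ferroptosis, a form of cell death by lipid peroxides, has suppressor and driver genes, whose counts stand beside 28% higher and 11.8% lower with the inhibitor and 26.6% higher and 10.3% lower with overexpression for all tested genes. Of 30 suppressors, 12 were higher and 5 lower with the inhibitor, 3 higher and 9 lower with overexpression. FTH1, the ferritin heavy chain, had 1863 and 1865 TPM in inhibitor libraries, against 1178 and 1222 TPM in shControl libraries, and 1344 and 1406 TPM in overexpression libraries, against 1402 and 1483 TPM in Vector libraries, with effects of 0.63 and -0.07, the second not called. Of 24 ferroptosis drivers, 8 were higher and 5 lower with the inhibitor, and 2 higher and 4 lower with overexpression, so the share higher with the inhibitor was near that of all genes. Exchanging the controls gave 10 drivers higher with overexpression. Of 31 type I interferon genes, 1 was mirrored, ISG20, with the inhibitor lower, while 1 was alike higher and 3 alike lower. The shares over all tested genes were 4.21%, 8.33% and 2.16%. Exchanging the controls gave 10 mirrored with the inhibitor lower. Of 28 mitotic genes, 2 were higher and 3 lower with the inhibitor, and 5 higher and 4 lower with overexpression. Under the 2 rescalings 7 and 9 were lower with the inhibitor and 9 and 8 lower with overexpression. With the controls exchanged 15 were lower with the inhibitor, 18 higher with overexpression and 13 mirrored with the inhibitor lower, so the count for this list rests on the control assignment.

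The hairpins were set beside these values because they lower STK17B RNA, with the reminder that they share the shControl libraries with the inhibitor effect. In the hypoxia and glycolysis list the hairpin effect (the mean of sh1 and sh2 minus shControl) had a median of -0.27, and 26 of 37 genes were called lower and 3 higher (20.2% and 26.2% of all tested genes). ANKRD37 had 11.2 and 12 TPM in sh1 and 14.5 and 15.1 TPM in sh2, a hairpin effect of -1.23, and VEGFA had 40.0 and 40.1 TPM in sh1 and 47.2 and 46.2 TPM in sh2. MIR210HG, in contrast, had 10.4 and 11.2 TPM in sh1 and 11.2 and 10.9 TPM in sh2, beside 11.8 and 11.4 TPM in shControl, and its hairpin effect of -0.08 was not called (limma adjusted p = 0.46). ALDOC had a hairpin effect of 0.06, not called, beside an inhibitor effect of -2.52, and SLC16A3 had 0.29, called higher. The ribosome biogenesis list had a median hairpin effect of -0.23, with 26 of 30 genes called lower and none higher, where the inhibitor effect had a median of 0.28. PNO1 had 28.6 and 28.0 TPM in sh1 and 31.8 and 30.5 TPM in sh2, under both shControl libraries, while the inhibitor libraries were over them. Plasma cell genes were lower with the hairpins as well, with a median of -0.66 and 14 of 16 called lower. SDC1 had 25.7 and 24.1 TPM in sh1 and 34.0 and 34.5 TPM in sh2. Cholesterol genes had a median hairpin effect of 0.12, with 12 called higher and 4 lower, where both other effects had negative medians. HMOX1 had 51.7 and 43.7 TPM in sh1 and 40.9 and 42.8 TPM in sh2, above shControl as in the other arms. Differences between the hairpin effect and the other effects were not tested.

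Properties of the transcripts, which the contrast did not use, were described by class. The median content of G and C in the longest annotated transcript was 56.4% for the mirrored genes lower with the inhibitor, 55.1% for those alike higher, 50.3% for those alike lower and 49.2% for the mirrored genes higher with the inhibitor, against 48.7% over all tested genes. Their median transcript lengths were 3195, 3006, 2952.5 and 2642 bases, against 3273 bases over all. These are descriptions over genes with a matched transcript (between 91.7% and 96% of each class, 88.7% of all), and no test was made of them.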

How the data were processed

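The authors' deposited table gives TPM per gene for 12 libraries of KMS11 cells, made by poly(A) selection and stranded library preparation per the labels' protocols. The submitters' processing notes name RSEM 1.3.1, Bowtie2 2.3.4.3 and HISAT, a GRCh38.p13 genome and DESeq2 1.4.5, without giving their order, and the table holds no counts, so depth is unknown. Genes with at least 1 TPM in 2 libraries were kept. In R 4.3.3, limma 3.58.1 fitted group means of the 12 libraries to log2(TPM + 1) with trended eBayes moderation. Both effects and their difference were tested with Benjamini-Hochberg adjustment over 12731 genes, with a threshold of 0.05. Fold changes on this scale understate low genes. The test was checked on simulated data. Named genes were STK17B, STK17A, up to 8 a class by the smaller of both changes, up to 6 at either end of the difference and up to 4 called members of a list, with at least 5 TPM in a group and no overlap with the control. Short RNAs were ranked apart, up to 3 a class. Some genes that these rules or lists hold are not reported here. Members and lists were chosen with earlier results of these data known. Coordinates come from a GENCODE annotation on GRCh38 matched by symbol, for 11295 of the tested genes, and sequences from RefSeq (GRCh38.p14). The alternatives changed the pseudocount, the filter, the scaling, the variance model, the libraries fitted, the controls, the replicate block and the call rule. Replicate numbers were not used as pairs.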

Additional observations from a re-analysis of the deposited data

How the results depend on the processing

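The 4 class counts kept within 1.5 times under other pseudocounts, filters, variance models and replicate omissions. Median-of-ratios scaling and quantile normalization gave 2290 and 2105 genes higher with the inhibitor, 2111 and 2210 higher and 2476 and 2566 lower with overexpression, 398 and 420 alike higher and 551 and 530 alike lower. With a 2-fold minimum, 47 genes were higher and 94 lower with the inhibitor, 102 higher and 20 lower with overexpression, 56 higher and 300 lower in the difference, 0 and 26 mirrored with the inhibitor higher and lower, and 7 and 4 alike higher and lower. With the controls exchanged, 3434 genes were lower with the inhibitor, 5721 higher with overexpression, 5354 lower in the difference, 1197 and 2452 mirrored with the inhibitor higher and lower, and 180 alike lower. With no controls, 4984 genes were lower in inhibitor than in overexpression libraries. With 1 library left out (a lone library is then assumed to vary like the other groups), 2458 to 3514 genes were higher and 1039 to 1479 lower with the inhibitor, 2287 to 3319 higher and 907 to 1308 lower with overexpression, 1732 to 2045 higher and 1753 to 1971 lower in the difference, 338 to 429 and 371 to 455 mirrored with the inhibitor higher and lower, and 722 to 838 and 207 to 233 alike higher and lower.

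Exchanging the controls left the inhibitor effect (log2) of MIR210 at 0. The exchange turned the sign of the inhibitor effect for ADSSL1 -0.28, BOP1 0.37, DNAJB1 -0.26, EPHX1 -0.19, GAMT -0.20, GPR75-ASB3 -0.52, HSPA1B -1.71 and TNFRSF17 0.12, of the overexpression effect for EPHX1 0.24, FTH1 0.20, GPR75-ASB3 1.80, HSPA1B 0.19, MZB1 0.11, NFKBIA -0.11 and SREBF1 0.25, and of the difference for ADAMTS10 -0.48, ADSSL1 -2.27, BMF -0.72, CYP1A1 -1.73, DNAJB1 -0.22, EPHX1 -0.42, F2R -1.68, FASN 0.21, GAMT -2.00, GPR75-ASB3 -2.32, HSPA1A -1.83, HSPA1B -1.90, LGALS17A -1.28, RN7SL1 1.82, RN7SL2 1.92, RNF207 -0.47, SLAMF7 0.51 and STK17A 0.36. With no controls the difference was ADSSL1 -1.12, BMF -0.27, CYP1A1 -0.10, F2R -0.74, GAMT -0.97, HSPA1A -0.43, HSPA1B -0.16 and STK17A 0.18. The overexpression effect of TXNDC5 was -0.034 with median-of-ratios scaling. The exchange takes the Vector minus shControl difference from the inhibitor effect and adds it to the overexpression effect. What lies behind that difference, or behind the change of TXNDC5, was not tested.

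The replicate numbers did not pair the libraries: deviations of same-numbered libraries correlated between -0.10 and 0.14, and 1 of 15 group pairs was over 0.1. With the replicate number as a block, 961 of the 1030 mirrored genes, 968 of 1061 alike higher and 252 of 275 alike lower kept their class. Depth is unknown, so changes of genes near 1 TPM have no counting error behind them.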
